A study of Mus musculus with 6 samples.

Results

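The melanosome biogenesis and transport machinery was examined in B16 cells as a set of 41 genes: the subunits of the BLOC-1, BLOC-2, BLOC-3, AP-3 and HOPS complexes, Vps33b of the CHEVI complex, 6 Rab GTPases, the Rab27 effectors that carry or dock melanosomes, and the accessory genes Lyst and Tspan10. The members were taken by gene symbol from the expression tables, and a gene with no entry in a library was given 0. Of the 41 members, 40 had a value in at least 1 library and 36 in all 6, among 20788 genes listed in at least 1 library of the series.

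Transcriptomes of 3 Tyr-L and 3 Tyr-H libraries were compared to ask which genes differ between melanoma cells that use tyrosine for melanin to a low or a high degree. Both groups were subclones of B16, a melanoma cell line of C57BL/6 mice, grown in low-glucose DMEM with serum and antibiotics, and they were labelled by low (Tyr-L) or high (Tyr-H) tyrosinase activity. The subclones were grown from colonies of sparsely plated parental cells, and how many subclones stand behind each group, or whether the 3 libraries of a group were separate cultures, is not given in the sources used here, so p-values may cover technical spread only. Values are FPKM, fragments normalised to transcript length and to mapped fragments, and each library rested on an estimated 18600000 to 21800000 fragments.

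Melanosomes are lysosome-related organelles. The BLOC complexes, AP-3 and HOPS sort pigment enzymes from endosomes into the maturing organelle, with Rab32 and Rab38 as the GTPases that specify this route, and mutations of many of these subunits cause the pigment defects of Hermansky-Pudlak syndrome in humans and of the classical coat-colour mutant mice. Mature melanosomes are tethered to cortical actin by Rab27a, its effector melanophilin (Mlph) and the motor myosin Va (Myo5a), whose loss gives the ashen, leaden and dilute coat colours, while the synaptotagmin-like protein encoded by Sytl2 links Rab27a to the plasma membrane.

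The cells carried a melanocyte program in both groups. All 9 melanocyte markers were listed in every library, with a sum of 7560 to 7870 FPKM in Tyr-L and 5640 to 6180 FPKM in Tyr-H libraries. Of 16 markers of leukocytes, fibroblasts, endothelium and keratinocytes, 15 stayed below 1 FPKM in every library (the exception, Pdgfrb, had means of 1.39 and 1.13 FPKM), and Ptprc, Itgam, Adgre1 and Cd3e had no entry in any library. Among these 16, Col1a1 of fibroblasts was higher in Tyr-H cells by adjusted p under each scaling tried (0.327 ± 0.0266 against 0.599 ± 0.0998 FPKM), and the fibroblast markers summed to 1.82 to 2.09 FPKM in Tyr-L and 1.83 to 2.20 FPKM in Tyr-H libraries. Tyr, the gene behind the group labels, was higher in Tyr-H cells (10.0 ± 0.602 against 21.3 ± 2.14 FPKM, SD, n = 3 each, log2 fold change 1.08), while Mitf, the master transcription factor of the melanocyte lineage, was lower (90.5 ± 6.64 against 25.0 ± 1.56 FPKM, log2 fold change -1.85). By limma's adjusted p under each scaling tried, Dct, Pmel, Sox10 and Oca2 were lower as well, while Tyrp1, Mlana and Slc45a2 differed in their call between scalings. These are RNA levels. At the protein level, the paper reports more tyrosinase, TYRP1 and TYRP2 in Tyr-H cells and no difference in MITF. The marker sums and Mitf moved with the groups, and their part in the results on the transport genes was not tested. In bulk RNA, fewer cells of a type and less RNA per cell cannot be told apart.

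Promoter sequences of Rab27a, Mlph, Tspan10 and Rab17 are shown because these genes differed between the groups by more than 2-fold, the first 3 downward and Rab17 upward. Each window runs 5′ to 3′ from 250 bases before to 50 bases after a RefSeq transcription start (GRCm38.p6), and capitals mark a match to a searched motif. The windows lie at chr9:73044560-73044859 and, for a downstream start inside the gene, chr9:73063898-73064197 (Rab27a, plus strand), chr1:90914850-90915149 (Mlph, plus strand), chr11:120442381-120442680 (Tspan10, plus strand) and chr1:90967618-90967917 (Rab17, minus strand, for a start inside the annotated gene).
Rab27a: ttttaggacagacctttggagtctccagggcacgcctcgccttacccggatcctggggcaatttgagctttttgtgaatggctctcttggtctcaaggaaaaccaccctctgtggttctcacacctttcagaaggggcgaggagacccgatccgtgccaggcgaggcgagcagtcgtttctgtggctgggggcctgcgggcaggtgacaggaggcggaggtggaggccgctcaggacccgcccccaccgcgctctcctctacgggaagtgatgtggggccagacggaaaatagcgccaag
Rab27a, downstream start: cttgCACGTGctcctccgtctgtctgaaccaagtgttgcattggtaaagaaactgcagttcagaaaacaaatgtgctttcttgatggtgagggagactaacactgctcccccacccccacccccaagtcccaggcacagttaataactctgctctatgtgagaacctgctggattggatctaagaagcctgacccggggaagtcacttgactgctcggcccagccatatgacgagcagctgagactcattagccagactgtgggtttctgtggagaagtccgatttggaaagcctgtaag
Mlph: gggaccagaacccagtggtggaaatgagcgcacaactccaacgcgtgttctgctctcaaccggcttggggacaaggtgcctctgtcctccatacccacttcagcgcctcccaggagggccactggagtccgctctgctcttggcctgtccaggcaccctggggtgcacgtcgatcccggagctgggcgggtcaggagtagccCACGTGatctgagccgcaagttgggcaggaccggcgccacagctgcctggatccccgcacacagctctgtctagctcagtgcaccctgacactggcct
Tspan10: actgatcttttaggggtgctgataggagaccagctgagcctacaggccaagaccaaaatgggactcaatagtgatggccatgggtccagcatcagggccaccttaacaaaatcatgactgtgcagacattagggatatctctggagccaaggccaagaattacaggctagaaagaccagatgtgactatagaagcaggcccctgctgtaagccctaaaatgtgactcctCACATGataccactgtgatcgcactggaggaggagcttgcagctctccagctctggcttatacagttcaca
Rab17: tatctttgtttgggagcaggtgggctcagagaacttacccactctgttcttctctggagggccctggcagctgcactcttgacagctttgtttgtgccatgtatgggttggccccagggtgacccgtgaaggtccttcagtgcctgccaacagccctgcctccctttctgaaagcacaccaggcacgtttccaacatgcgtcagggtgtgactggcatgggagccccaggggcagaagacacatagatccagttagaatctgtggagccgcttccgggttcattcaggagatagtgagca
The letters CACGTG and CATGTG, forms of the E-box that MITF and related factors are known to bind, were searched on both strands. So were TGACGTCA (the cAMP response element) and TGANTCA, a pattern wider than the AP-1 element, with any base at N. CACGTG began 48 bases before the Mlph start and 246 bases before the downstream Rab27a start, CATGTG was present as its reverse complement 21 bases before the Tspan10 start, and the Rab17 window held none of the 4. The RefSeq table gave 35 windows for 32 members, with none for Sytl2, Rab38, Rab27b, Snapin, Bloc1s6, Ap3s1, Vps11, Vps39 and Vps33b. CACGTG was in 9 windows (25.7%), in Bloc1s1, Bloc1s3, Hps1, Hps3, Hps5, Mlph, Rab27a, Vps16 and Vps33a, against 7.15% of all 32851 windows and 9.90% of the 12613 windows of tested genes. CATGTG was in 17.1% of member windows, against 14.2% and 8.74%, TGACGTCA in 2.86%, against 1.79% and 3.04%, and TGANTCA in 2.86%, against 7.81% and 4.99%. Of these 9 CACGTG genes, 6 were lower by adjusted p on the deposited values (Bloc1s1, Hps3, Hps5, Mlph, Rab27a and Vps16), Hps1 was higher, and Bloc1s3 and Vps33a did not pass. The share of all tested members lower by adjusted p was 63.9% and of all tested genes 39.9%, so nothing particular to the CACGTG genes is read from this count, and Bloc1s1 no longer passed after median ratio scaling. A match describes the sequence only and does not show a bound site.

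Differences were tested with limma on log2(FPKM + 0.1), and calls needed an adjusted p no larger than 0.05 (Benjamini-Hochberg over 14336 tested genes) and a change of 1 log2 unit or more in either direction. Of the 41 members, 36 averaged 0.1 FPKM or more and were tested, 4 were listed but too low (Myrip, Sytl1, Sytl3 and Sytl4), and Sytl5 was not listed. Called lower in Tyr-H cells were 4 of the 36 (11.1%), namely Rab27a, Mlph, Sytl2 and Tspan10, where 5.78% of all tested genes were called lower. Called higher was 1 (2.78%), Rab17, where 2.96% of all tested genes were. By adjusted p alone, 23 members (63.9%) were lower and 2 (5.56%) higher, against 39.9% and 17.9% of all tested genes. The 3 values of each group did not overlap for 22 lower (61.1%) and 2 higher (5.56%) members, against 43.8% and 20.2% of all tested genes.

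These counts move with the scaling of the libraries. Across all tested genes, the log2 fold change had a median of -0.15 as deposited. Median ratio scaling brought it to -0.01, and there 14 members (38.9%) were lower and 8 (22.2%) higher by adjusted p, against 27.0% and 27.8% of all tested genes. After quantile normalization 15 members (41.7%) were lower and 8 (22.2%) higher, against 27.9% and 25.9%. When a change of 0.58 log2 units sufficed on the deposited values, 8 members (22.2%) were called lower, against 15.6% of all tested genes. The members' median was -0.24 as deposited, and 23 of the 36 lay below the median of all genes. Directions that held by adjusted p on the deposited values and under each of the 3 other scalings tried (a common total, median ratio and quantile) are given as such: 14 members were lower in all of these (Dtnbp1, Snapin, Hps3, Hps5, Ap3d1, Vps16, Vps18, Rab27a, Rab32, Mlph, Myo5a, Sytl2, Lyst and Tspan10), 2 were higher (Rab17 and Hps1), 2 passed in none (Hps6 and Rab27b), and 18 differed in their call between scalings. Of all tested genes, 25.6% were lower and 12.7% higher in all 4, against 38.9% and 5.56% of the tested members. Replicates were close, with a coefficient of variation of the more variable group between 1.34% and 20.0% over the tested members (median 5.02%).

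**Figure D1:**
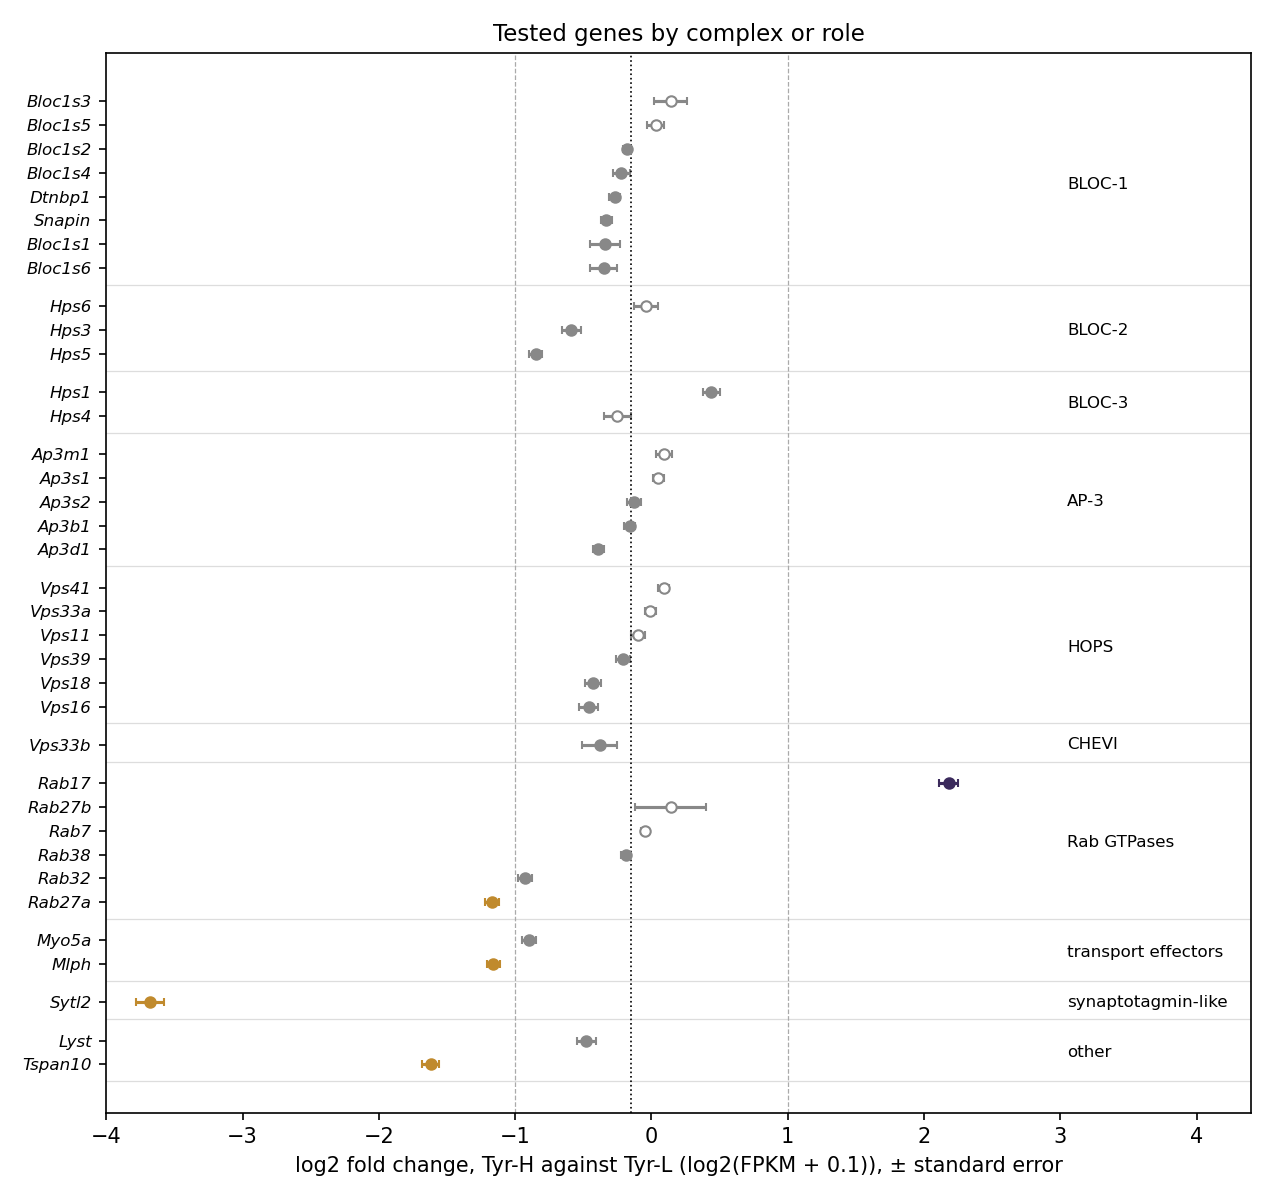
Log2 fold change (Tyr-H against Tyr-L, with its standard error) of the 36 tested members, grouped by complex or role. Filled points passed an adjusted p of 0.05, coloured points were also called at 1 log2 unit (dashed lines), and the dotted line is the median of all tested genes (-0.15). The 25 subunits of the sorting complexes lie between -0.85 and 0.44, and the 5 called genes are all Rab GTPases, effectors or Tspan10.

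The tripartite transport machine was lower in Tyr-H cells in each of its parts. Rab27a, the melanosome-bound GTPase (chr9:73044854-73097629, plus strand), was at 59.7, 57.0 and 59.4 FPKM in Tyr-L libraries and at 27.9, 25.0 and 25.5 FPKM in Tyr-H libraries. Mlph, which bridges Rab27a and the motor (chr1:90915085-90951142, plus strand), was at 110, 105 and 106 FPKM against 51.8, 47.1 and 44.8 FPKM. Myo5a, the motor itself (chr9:75071015-75223688, plus strand), was at 104, 94.7 and 99.9 FPKM against 54.1, 56.5 and 49.9 FPKM. Every Tyr-H library was below every Tyr-L library for all 3 genes. Rab27a fell by 1.17 on the log2 scale (SE 0.05, limma adjusted p = 2.7e-07) and Mlph fell by 1.16 (SE 0.05, adjusted p = 3.8e-07). Myo5a fell by 0.90 (SE 0.05, limma adjusted p = 1.5e-06), which missed the fold threshold for a call.

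The balance within this trio was measured as a ratio of FPKM in each library. Mlph over Rab27a was 1.84, 1.85 and 1.79 in Tyr-L and 1.85, 1.89 and 1.75 in Tyr-H libraries, with means of 1.82 ± 0.0326 and 1.83 ± 0.0692 (SD, exact two-sided permutation test, p = 0.8). The ratio in the 2 groups overlapped, while both of its genes were lower in Tyr-H cells. Myo5a over Rab27a was 1.69 ± 0.0414 in Tyr-L and 2.05 ± 0.183 in Tyr-H libraries without overlap (exact two-sided permutation test, p = 0.1, the smallest that 3 against 3 libraries can give, so no such test could reach 0.05). Myrip, an effector that links Rab27a to other myosins in retinal pigment epithelium, was at 0 to 0.0133 FPKM, under the level of 3 fragments in every library.

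Rab27b, the paralog of Rab27a, was low in both groups (0.197 ± 0.0342 and 0.226 ± 0.0304 FPKM) and did not pass the test (log2 fold change 0.14, SE 0.26, limma adjusted p = 0.67). Rab27a made up 99.7% ± 0.0505 of the summed Rab27a and Rab27b FPKM in Tyr-L and 99.1% ± 0.124 in Tyr-H libraries. Rab27a was the main Rab27 transcript in every library.

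**Figure D2:**
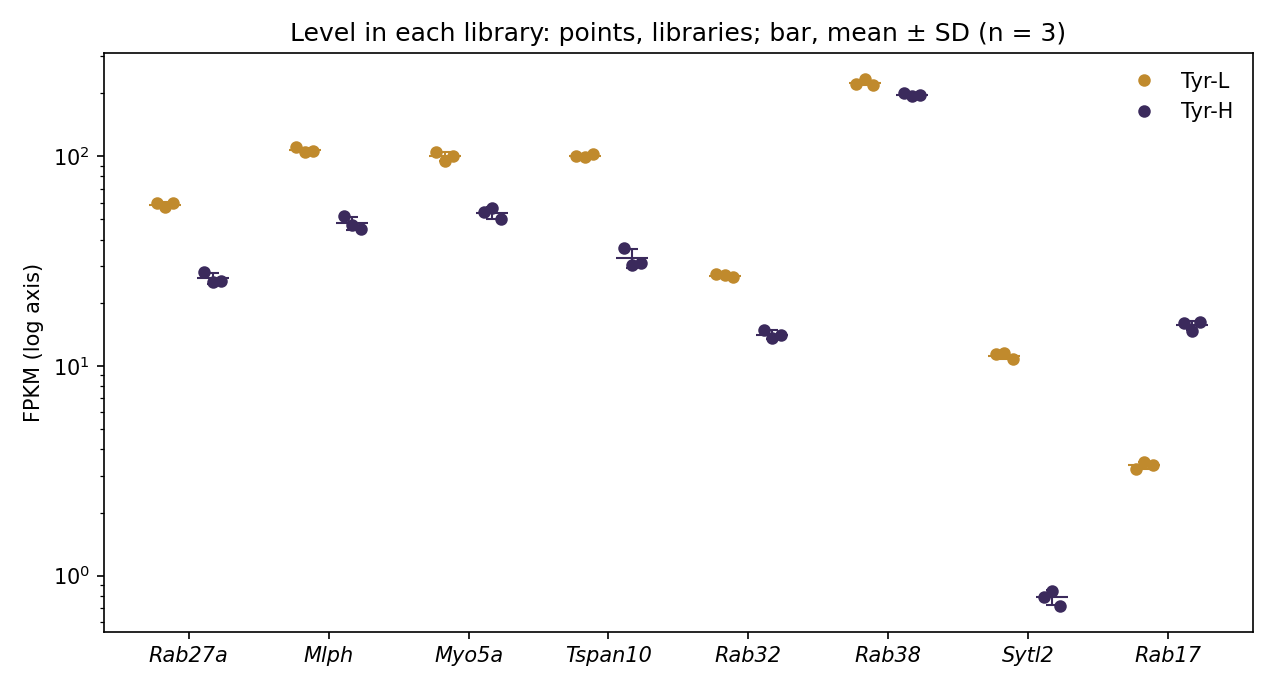
FPKM on a log axis for 8 members in each library (points), with the group mean and SD (n = 3). Rab27a, Mlph, Myo5a, Tspan10, Rab32 and Sytl2 sit lower in all 3 Tyr-H libraries, Rab17 sits higher, and Rab38 differs least (224 ± 6.94 against 196 ± 3.31 FPKM).

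The largest fall among the members was in Sytl2 (chr7:90302252-90410719, plus strand), and the makeup of its family differed between the groups. Sytl2 was at 11.4, 11.5 and 10.8 FPKM in Tyr-L and 0.793, 0.849 and 0.720 FPKM in Tyr-H libraries, with no overlap (log2 fold change -3.68, SE 0.10, limma adjusted p = 2.8e-08). The ratio of the mean FPKM was 14.3 in favour of Tyr-L cells. Summed over Sytl1 to Sytl5, the family was at 11.5, 11.5 and 10.8 FPKM in Tyr-L and 1.11, 1.15 and 0.979 FPKM in Tyr-H libraries. Sytl2 held 99.8% ± 0.301 of that sum in Tyr-L and 72.9% ± 1.52 in Tyr-H libraries, a difference of -26.9 percentage points. The test of this share (exact two-sided permutation test, p = 0.1, the smallest possible) adds no support beyond the Sytl2 fall.

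The lower Sytl2 share goes with both the lower Sytl2 level and low values of other members in Tyr-H libraries. Part of this remainder was Sytl4, which encodes granuphilin, a Rab27a effector of secretory granules. Sytl4 had no entry in any of the 3 Tyr-L libraries and was at 0.188, 0.167 and 0.221 FPKM in the Tyr-H libraries, above the 0.0367 to 0.043 FPKM that 3 fragments give for this gene. Its share of the family sum was 16.9%, 14.5% and 22.6% in the Tyr-H libraries. Its mean over the 6 libraries was under the filter, so it was tested only where that filter was lifted or a Tyr-L library was left out. Sytl3 had no entry in Tyr-L libraries, was at 0.07 and 0.132 FPKM in Tyr-H replicates 1 and 2 and had no entry in replicate 3, Sytl1 was at 0.0635 FPKM or less throughout, and Sytl5 was not listed. Depth does not allow a comparison of these 3.

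**Figure D3:**
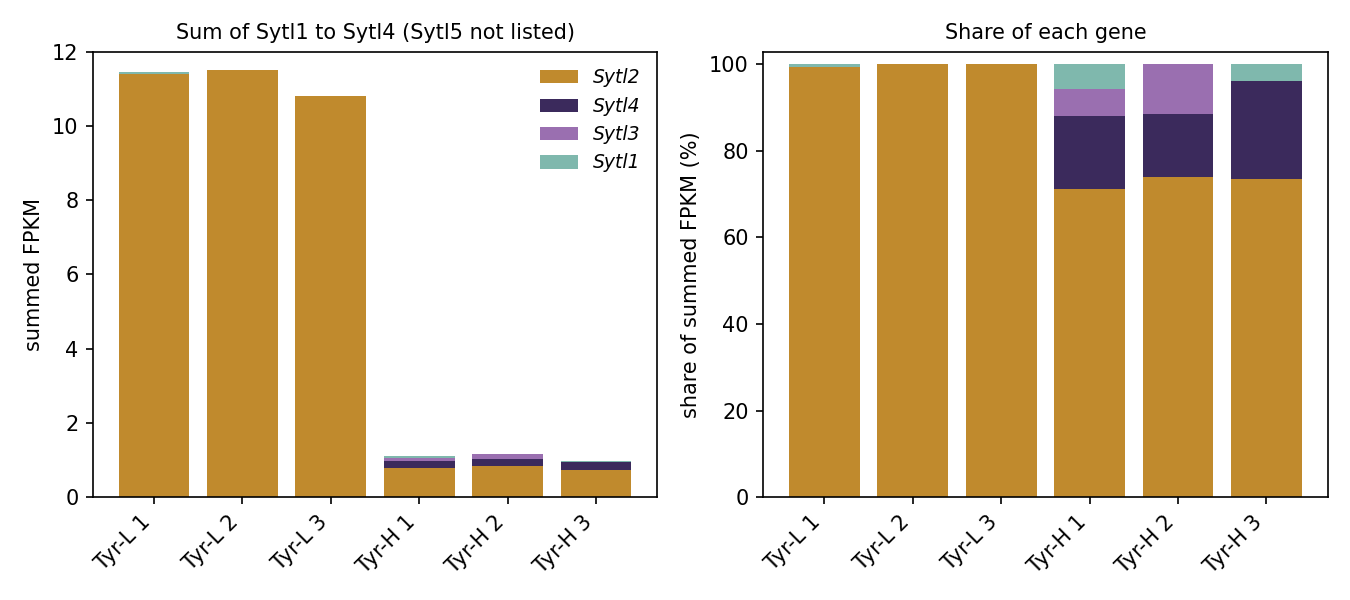
Left, FPKM of Sytl1 to Sytl4 stacked in each library; right, the same as a share of their sum in percent. Sytl2 fills 99.5% to 100% of the sum in Tyr-L libraries and 71.2% to 74.0% in Tyr-H libraries, where the sum itself was about 1 FPKM.

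Rab17 was the only member called higher. This GTPase of recycling endosomes is known in melanocytes for its role in melanosome release. It was at 3.21, 3.47 and 3.38 FPKM in Tyr-L and 16, 14.7 and 16.2 FPKM in Tyr-H libraries (chr1:90958133-90969661, minus strand). The groups were far apart, with a log2 fold change of 2.18 (SE 0.07, limma adjusted p = 8.2e-08), a 4.55-fold rise on the test scale. Rab17 ranked 34 among the members by mean FPKM in Tyr-L and 21 in Tyr-H cells.

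Rab17 and Mlph are neighbours on chromosome 1. They lie on opposite strands with their 3′ ends facing each other, 6.99 kb apart, and they moved in opposite directions. Rab17 over Mlph was 0.0314 ± 0.00193 in Tyr-L and 0.327 ± 0.0296 in Tyr-H libraries. Since both genes moved in opposite directions without overlap of their groups, this ratio had to separate the groups and only restates those changes. The next tested genes along the chromosome were not called: Cops8 had a log2 fold change of 0.06, Ackr3 of -0.50 and D130058E05Rik of -0.77 on the Mlph side (302, 698 and 982 kb from Mlph), and Lrrfip1 of -0.18, Ube2f of 0.05 and the pseudogene Gm7785 of -0.33 on the Rab17 side (29.1, 281 and 326 kb from Rab17). Neither gene overlaps another annotated gene.

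**Figure D4:**
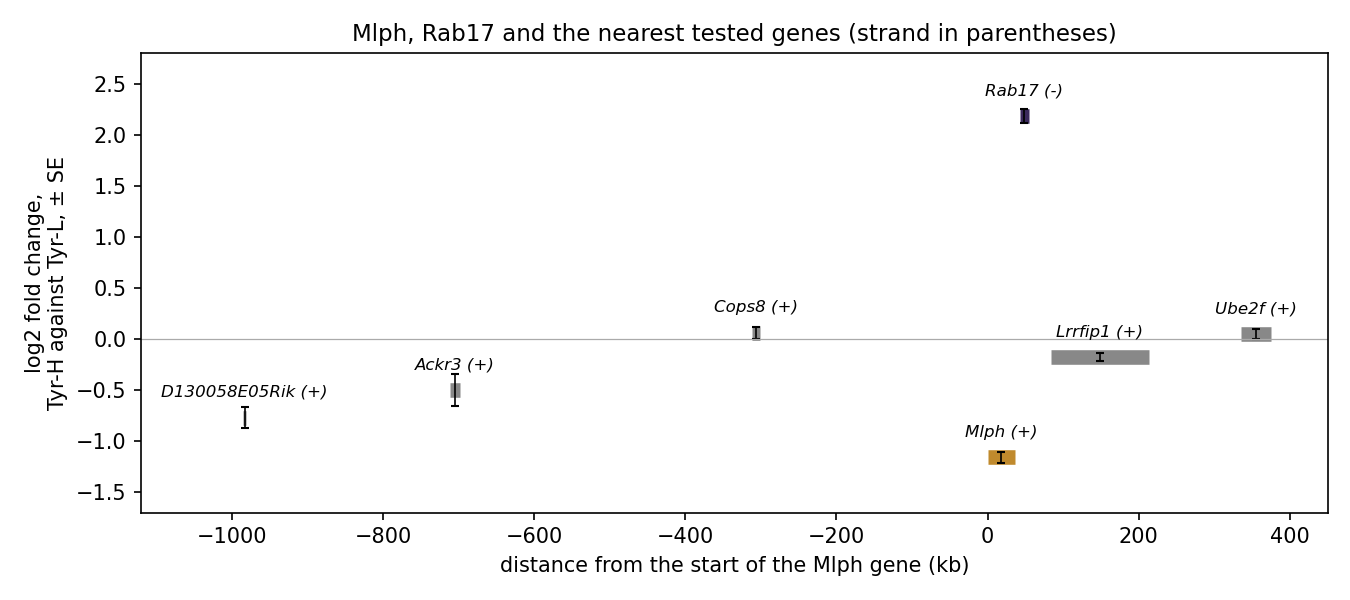
Log2 fold change with its standard error (Tyr-H against Tyr-L) of Mlph, Rab17 and the nearest tested genes of Mlph against distance from the Mlph start in kb, drawn to scale, with bars spanning each gene and the strand in parentheses. Rab17 (2.18) and Mlph (-1.16) stand apart from the other 5 genes, which lie between -0.77 and 0.06.

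For each called member, the 3 nearest tested genes on either side were taken, 30 entries in all, and only Mlph and Rab17 were called among them, each as the other's neighbour. These are 6.67% of the entries, and over all tested genes 2.96% were called higher and 5.78% lower, so nothing particular to these loci is read from the count. Of the 24 different neighbours beside Mlph and Rab17, 9 were lower by adjusted p and none higher, against 39.9% and 17.9% of all tested genes. Around Sytl2, within 114 kb, Picalm had a log2 fold change of 0.08, Gm45220 of -0.86, Gm45221 of -0.81, Crebzf of -0.12, Tmem126a of -0.01 and Tmem126b of -0.71. Around Tspan10, within 91.5 kb, Nploc4 had a log2 fold change of 0.05, Faap100 of 0.19, 0610009L18Rik of 0.11, Pde6g of -0.13, Oxld1 of -0.03 and Ccdc137 of -0.39. Around Rab27a, 2310009A05Rik had a log2 fold change of -0.28, Pigb of -0.38, Gm38192 of -0.74, Rsl24d1 of -0.34, Fam214a of 0.04 and Arpp19 of -0.26. The last 2 of these lie 1860 and 1940 kb away, since no tested gene lies nearer on that side beyond Rsl24d1 (15.8 kb). The span of Rab27a overlaps that of the annotated gene Gm27186. Whether their exons overlap was not checked, and strand is not stated for these libraries.

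Tspan10, a tetraspanin of pigment cells known as a partner of the protease ADAM10, ranked 4 among the members by mean FPKM in Tyr-L and 8 in Tyr-H cells. It was at 99.8, 99.4 and 102 FPKM in Tyr-L and 36.6, 30.3 and 31.0 FPKM in Tyr-H libraries, without overlap (chr11:120442644-120446950, plus strand). Its log2 fold change was -1.62 (SE 0.06, limma adjusted p = 2.4e-07). Lyst, the beige gene that limits lysosome and melanosome size, was at 7.98, 7.25 and 8.18 FPKM against 5.73, 5.75 and 5.27 FPKM. The Lyst groups did not overlap, with a log2 fold change of -0.48 (SE 0.07, limma adjusted p = 0.00045).

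Among the GTPases of melanosome biogenesis, Rab32 and Rab38 were both lower on the deposited values, by unequal amounts. Rab32 was at 27.3, 27.0 and 26.5 FPKM in Tyr-L and 14.8, 13.5 and 14.1 FPKM in Tyr-H libraries. Its groups did not overlap, and it fell by 0.93 on the log2 scale (SE 0.05, limma adjusted p = 7.3e-07). Rab38, which acts in part redundantly with Rab32 and is the chocolate gene, was at 221, 232 and 219 FPKM against 200, 194 and 195 FPKM. The Rab38 log2 fold change was -0.19 (SE 0.03, limma adjusted p = 0.001), and it was -0.04 and past no threshold after median ratio scaling. Rab38 took 89.3% ± 0.268 of the summed Rab32 and Rab38 FPKM in Tyr-L and 93.3% ± 0.189 in Tyr-H libraries, 4.03 percentage points more (exact two-sided permutation test, p = 0.1, the smallest possible). Rab7, the late endosome GTPase, was at 211, 210 and 212 FPKM against 203, 210 and 200 FPKM, with a log2 fold change of -0.05 (SE 0.03, limma adjusted p = 0.22) that passed as higher after median ratio scaling (0.11) and as lower on a common total (-0.14). Rab38 and Rab7 were the most abundant members by mean FPKM in both groups.

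In the sorting complexes, none of the 25 tested subunits was called, where 5.78% of all tested genes were called lower and 2.96% higher. By limma's adjusted p on the deposited values 15 (60.0%) were lower and 1 (4.0%) higher, against 39.9% and 17.9% of all tested genes, and 17 (68.0%) had an unadjusted p below 0.05, against 62.4%. After median ratio scaling only Dtnbp1, Snapin, Hps3, Hps5, Ap3d1, Vps16 and Vps18 of the 25 passed as lower. Bloc1s5, Hps1, Ap3m1, Ap3s1, Vps33a and Vps41 passed as higher there, where 27.0% of all tested genes were lower and 27.8% higher. The median log2 fold change of the 25 subunits was -0.21 on the deposited values, against -0.15 for all tested genes. The 11 tested Rab GTPases, effectors and accessory genes had a median of -0.90, with 4 (36.4%) called lower and 1 (9.09%) higher, against 5.78% and 2.96% of all tested genes. The 6 Rab GTPases alone had a median of -0.12, near the -0.15 of all tested genes, so the pooled median does not describe them as a class.

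BLOC-2 showed the lowest median of the complexes (-0.59). Hps5, one of its subunits and the ruby-eye-2 gene, was at 26.7, 26.5 and 25.2 FPKM in Tyr-L and 15.1, 14.0 and 14.4 FPKM in Tyr-H libraries, and fell by 0.85 (SE 0.05, limma adjusted p = 1.1e-06). Hps3, the cocoa gene, was at 26.5, 25.5 and 29.4 FPKM against 18.6, 18.8 and 16.5 FPKM, and fell by 0.59 (SE 0.07, limma adjusted p = 6.4e-05). Neither gene's groups overlapped. Hps6, the third subunit and the ruby-eye gene, was at 3.19, 3.18 and 3.03 FPKM against 2.97, 3.09 and 3.10 FPKM, with overlapping groups and a log2 fold change of -0.04 (SE 0.09, limma adjusted p = 0.74) that was 0.11 after median ratio scaling. Of the 3 subunits, Hps6 had the lowest level per length and the smallest difference. Hps3 overlaps the protein-coding gene Cp in the annotation.

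BLOC-3, the exchange factor that activates Rab32 and Rab38, has 2 subunits, of which Hps1 was higher and Hps4 did not pass on the deposited values. Hps1, the pale ear gene, was at 7.71, 7.52 and 7.40 FPKM in Tyr-L and 10.1, 10.0 and 10.7 FPKM in Tyr-H libraries. It was higher in all 3 Tyr-H libraries, with a log2 fold change of 0.44 (SE 0.06, limma adjusted p = 0.00014). Hps1 was the only sorting subunit that passed as higher by adjusted p under each scaling. Hps4, the light ear gene and its partner, was at 9.17, 9.07 and 8.34 FPKM against 6.34, 7.55 and 8.56 FPKM. Its groups overlapped, and its log2 fold change of -0.25 (SE 0.10, limma adjusted p = 0.061) did not pass on the deposited values, while it passed as lower on a common total and without Tyr-H replicate 3 (-0.35 in each), and with only genes of a mean of 1 FPKM or more tested (-0.25, limma adjusted p = 0.05). It was -0.14 without Tyr-H replicate 1, -0.10 after median ratio scaling and -0.09 after quantile normalization, and passed in none of these. Hps4 overlaps the annotated protein-coding entry Gm6583.

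BLOC-1 begins cargo exit from endosomes towards melanosomes, and its median log2 fold change was -0.25. By adjusted p 6 of its 8 subunits were lower, of which Dtnbp1 and Snapin stayed so under each scaling. Over all tested genes 39.9% were lower on the deposited values and 25.6% under each scaling. Dtnbp1, or dysbindin, the sandy gene, was at 48.1 ± 1.28 against 39.8 ± 0.812 FPKM (log2 fold change -0.27), and Snapin, a SNARE-binding subunit, at 24.6 ± 0.798 against 19.5 ± 0.285 FPKM (-0.33). The largest fall on the deposited values was in Bloc1s6, pallidin, at 15.1, 14.2 and 12.8 FPKM against 9.80, 13.0 and 10.4 FPKM. These groups overlapped, and the log2 fold change of -0.35 (SE 0.10, limma adjusted p = 0.016) no longer passed at -0.20 after median ratio scaling. Bloc1s1 (-0.34), Bloc1s2 (-0.18) and Bloc1s4 (-0.22) likewise passed on the deposited values but not after median ratio scaling. Bloc1s3, the reduced pigmentation gene, was at 3.89, 3.26 and 4.04 FPKM against 3.57, 4.41 and 4.36 FPKM and did not pass (log2 fold change 0.14, SE 0.12, limma adjusted p = 0.34), while it passed as higher after quantile normalization (0.31). Bloc1s5, or muted, was at 12.7 ± 0.478 against 12.9 ± 0.781 FPKM, and its log2 fold change of 0.03 turned to -0.07 when libraries were scaled to a common total and passed as higher after median ratio scaling and quantile normalization (0.18 in each). Snapin overlaps Ilf2 and Bloc1s1 overlaps Rdh5 in the annotation.

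AP-3, the adaptor that sorts tyrosinase, had a median log2 fold change of -0.13, close to that of all genes. Its delta subunit Ap3d1, the mocha gene, was at 40.8, 41.5 and 41.7 FPKM in Tyr-L and 30.6, 31.9 and 31.8 FPKM in Tyr-H libraries, and fell by 0.39 without overlap (SE 0.04, limma adjusted p = 1.6e-05). Ap3m1, the mu subunit that reads sorting signals, was at 28.5, 24.1 and 27.1 FPKM against 26.9, 28.5 and 29.2 FPKM, with overlapping groups and a log2 fold change of 0.09 (SE 0.06, limma adjusted p = 0.26) that was -0.01 on a common total and passed as higher after median ratio scaling (0.24) and quantile normalization (0.20). Ap3d1 was the single AP-3 subunit that passed as lower by adjusted p under each scaling. Ap3b1, the pearl gene, had a log2 fold change of -0.16 and Ap3s2 of -0.13, and neither passed after median ratio scaling, where Ap3s2 turned to 0.03. Ap3s1 was at 48.9 ± 1.61 against 50.5 ± 1.90 FPKM, with a log2 fold change of 0.05 that turned to -0.05 on a common total and passed as higher after median ratio scaling (0.20) and quantile normalization (0.13). Ap3m1 overlaps Vcl in the annotation.

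HOPS, the tethering complex for late endosomes and lysosomes, had a median log2 fold change of -0.15, equal to that of all genes. Vps16, a core subunit, was at 24.4, 26.9 and 22.2 FPKM in Tyr-L and 18.9, 16.8 and 17.6 FPKM in Tyr-H libraries, and fell by 0.46 without overlap (SE 0.07, limma adjusted p = 0.0005). Vps18, another core subunit, was at 11.4 ± 0.527 against 8.43 ± 0.300 FPKM (log2 fold change -0.43). Both were lower under each scaling. Vps41, which binds AP-3 and Rab7, was at 28.8, 26.8 and 27.8 FPKM against 28.6, 29.8 and 30.1 FPKM, with overlapping groups and a log2 fold change of 0.09 (SE 0.04, limma adjusted p = 0.11) that was -0.01 on a common total and passed as higher after median ratio scaling (0.24) and quantile normalization (0.19). Vps33a, the buff gene, was at 22.1 ± 0.296 against 21.9 ± 0.0733 FPKM, with a log2 fold change of -0.01 that passed as higher after median ratio scaling (0.14) and quantile normalization (0.11). Vps39 had a log2 fold change of -0.21 and passed on the deposited values but not after median ratio scaling. Vps11 had a log2 fold change of -0.10 and did not pass, while it passed as lower on a common total (-0.19) and was at 0.06 after median ratio scaling. Vps33b, the paralog of Vps33a in the CHEVI complex, was at 4.81, 4.86 and 5.08 FPKM against 3.22, 4.66 and 3.51 FPKM, with a log2 fold change of -0.38 (SE 0.13, limma adjusted p = 0.028) that did not pass after median ratio scaling (-0.23). Its Tyr-H libraries varied most among the tested members, with a coefficient of variation of 20.0%.

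Other genes of the pathway, a list of 45 with 43 listed and 39 tested, had a median log2 fold change of -0.01. By limma none was called, where 2.96% of all tested genes were called higher and 5.78% lower, and 18 (46.2%) had an unadjusted p below 0.05, against 62.4% of all tested genes. By adjusted p on the deposited values 9 (23.1%) were higher and 7 (17.9%) lower, against 17.9% and 39.9% of all tested genes. These counts moved with the scaling: under all 4 scalings 6 were higher and 5 lower, and 19 differed in their call. Over all tested genes 12.7% were higher and 25.6% lower in all 4. The BORC genes, whose complex shares subunits with BLOC-1 and positions lysosomes, had 4 of 5 higher by adjusted p and none lower. Borcs5 was at 9.09 ± 0.855 against 11.4 ± 0.374 FPKM (log2 fold change 0.33), Borcs6 at 5.54 ± 0.0882 against 8.36 ± 0.676 FPKM (0.58) and Borcs7 at 1.93 ± 0.0336 against 2.67 ± 0.121 FPKM (0.45). These 3 passed under each scaling, while Kxd1 (0.21) did not pass on a common total. Among subunits of AP-1, the adaptor that works beside AP-3 at endosomes, Ap1s2 was at 19.5 ± 1.37 against 9.74 ± 0.197 FPKM and fell by 0.99 (SE 0.06, limma adjusted p = 1.6e-06), and Ap1g2 was at 5.25 ± 0.306 against 9.50 ± 0.575 FPKM and rose by 0.84 (SE 0.07, limma adjusted p = 1.4e-05). Neither reached the fold threshold on the deposited values. Ap1s2 was called under several alternatives and Ap1g2 only after quantile normalization (1.01). Stx3, a SNARE of melanosome fusion, rose by 0.71 and Snap23 fell by 0.48, and Pikfyve, the lipid kinase of endosome maturation, fell by 0.75, all of them under each scaling. The list of 13 genes for Rab prenylation, exchange and turnover includes the Rab27 exchange factor Madd (log2 fold change 0.01) and the escort protein Chm (-0.05). Of these 13, 2 were higher, 1 was lower and 10 did not pass by adjusted p on the deposited values. Across the scalings 7 of them differed in their call and 6 passed in none. Of the other Rab27 effectors, Exph5, Rph3al and Rph3a were too low to test, and Unc13d was at 0.178 ± 0.0362 against 0.163 ± 0.0756 FPKM.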

How the data were processed

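RNA of 3 Tyr-L and 3 Tyr-H libraries of B16 cells was sequenced from mRNA libraries as paired reads of 150 bases. The authors deposited 1 FPKM table per library, which lists genes with a value only. Trimmomatic, HISAT2 and HISAT and the build GRCm38.p6 are named in the submitters' processing notes, with no versions. The quantifier, its annotation and the strand setting are not given in the sources used here. Depth was estimated from the steps between low FPKM values of genes with a single annotated transcript of at least 1500 bases. The limit of 3 fragments that it gives covers counting error only and uses the longest annotated transcript.

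The tables were joined by gene identifier, and unlisted genes were set to 0. Genes that averaged 0.1 FPKM or more were tested with limma 3.58.1 (R 4.3.3, eBayes with trend) on log2(FPKM + 0.1) over all 6 libraries, which understates the change of low genes, with Benjamini-Hochberg adjustment over all tested genes. Levels, shares and ratios used Python 3.11.15 and exact two-sided permutation tests (scipy 1.17.1). The script was tested on simulated data. Coordinates come from the GENCODE M21 annotation (GRCm38, counted from 1) and promoters from RefSeq (GRCm38.p6).

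Members, gene lists and promoter motifs were chosen with earlier results of these data known. Values in every library are given for called members and for the members with the largest increase and decrease in each complex. Other named members and pathway genes (Rab32, Rab38, Rab7, Hps3, the BORC genes, the AP-1 subunits, Stx3, Snap23, Pikfyve, Madd and Chm among them) were chosen after their values were seen. Of the pathway list, Rab9a was matched through its synonym Rab9, and Ap3b2 and Vamp7 had no value. Of the 40 listed members, 22 overlap another annotated gene and 7 a protein-coding gene by whole gene span, introns included. Whether exons overlap was not checked, so reads may or may not be ambiguous there. Replicates were compared first: the median absolute log2 difference between libraries was 0.099 to 0.12 within and 0.333 to 0.393 between groups, and no 2 libraries were identical. Alternatives were other pseudocounts, filters, scalings and fold thresholds, a replicate block, and each library left out in turn.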

Additional observations from a re-analysis of the deposited data

How the results depend on the processing

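Rab27a, Mlph, Sytl2, Tspan10 and Rab17 kept their calls in all 14 alternative fits, with log2 fold changes of -1.26 to -1.01, -1.26 to -1.01, -3.85 to -2.78, -1.72 to -1.47 and 1.93 to 2.34. Members called lower numbered 8 (22.2%) when a change of 0.58 log2 units sufficed, against 15.6% of all tested genes. Members called higher numbered 2 with no filter on low values and 1 to 2 with a library left out, the added gene being Sytl4 in each case (Tyr-L replicate 1, 2 or 3 left out). With a library left out, its mean passed the filter through its Tyr-H values alone, so this call supports nothing. By adjusted p, 8 members were higher and 14 lower after median ratio scaling, and 8 and 15 after quantile normalization. In the other pathway genes 1 was called with a pseudocount of 0.01 FPKM or a common total (Ap1s2) and after quantile normalization (Ap1g2), and 0 to 1 with a library left out (Ap1s2 without Tyr-L replicate 1 or 2 or Tyr-H replicate 2). Over all tested genes the calls split into 425 higher and 829 lower as deposited, 403 and 1175 on a common total, 538 and 588 after median ratio scaling, 599 and 508 after quantile normalization, 185 and 203 with a pseudocount of 1 FPKM, and 247 and 393 with a mean of at least 1 FPKM. The median log2 fold change of all genes was -0.25 on a common total and -0.02 after quantile normalization.

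Medians moved with that shift. On a common total they were -0.34 (BLOC-1), -0.69 (BLOC-2), 0.00 (BLOC-3), -0.22 (AP-3), -0.25 (HOPS), -0.21 (Rab GTPases), -1.12 (Mlph and Myo5a) and -1.15 (Lyst and Tspan10). After median ratio scaling they were, in that order, -0.10, -0.44, 0.25, 0.03, 0.00, 0.03, -0.87 and -0.90. After quantile normalization they were -0.13 (BLOC-1), -0.47 (BLOC-2), 0.26 (BLOC-3), 0.02 (AP-3), -0.02 (HOPS), -0.97 (Mlph and Myo5a) and -0.93 (Lyst and Tspan10). The Rab GTPases stood at -0.19 with a mean of at least 1 FPKM, which drops Rab27b. Members near 0 changed sign: on a common total Bloc1s5 (-0.07), Ap3m1 (-0.01), Ap3s1 (-0.05) and Vps41 (-0.01), after median ratio scaling Hps6 (0.11), Ap3s2 (0.03), Vps11 (0.06), Vps33a (0.14) and Rab7 (0.11), after quantile normalization Hps6 (0.13), Ap3s2 (0.02), Vps11 (0.03) and Vps33a (0.11), and without Tyr-H replicate 2 Bloc1s5 (-0.02). The gain in the Rab38 share was 3.27 percentage points after quantile normalization. Rab32 was called on a common total (-1.03).

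Libraries with the same replicate number did not deviate together (correlations of 0.02, 0.01 and -0.08, and 1 of 3 pairs correlated best with its own number). With 3 libraries per group, this cannot show whether same-numbered libraries were handled together. With a replicate block, 4 members were called lower and 1 higher, and 21 were lower and 2 higher by adjusted p. Depth limits Sytl1, Sytl3 and Myrip, which lay near or under 3 fragments per library.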
